A study of Mus musculus with 24 samples.

Results

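Genes of myofibroblasts and of transforming growth factor beta (TGF-beta) signalling were followed through constructs explanted from under the skin of mice. They were found by matching gene symbols to the identifiers of the count table, which gave 10 of the 51138 genes in it. They are the myofibroblast genes Acta2 and Fap, the matrix genes Fn1, Postn, Tnc, Cthrc1 and Thbs2, and the ligands Tgfb1, Tgfb2 and Tgfb3. The matching used symbols and no measured value, but the 10 genes were chosen with earlier results of these data known. Each of them passed the filter on low counts, and the lowest count of any of them in any sample was 64, for Fap.

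Fibroblasts that settle around an implanted material can become myofibroblasts, contractile cells that lay down the matrix of the fibrous capsule. TGF-beta is the main signal for that change. Cells secrete it in a latent form that integrins and proteases release, and the freed ligand acts through paired receptors and SMAD proteins on the genes for smooth muscle actin, collagens and other matrix proteins.

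Bulk RNA sequencing measured 24 samples in 6 groups of 4, with 1 animal per sample. Each construct held 40 mg of a granular bone substitute, the ceramic biphasic calcium phosphate (BCP), and was collected 2 weeks after it was placed under the skin of the back. All hosts were Foxp3-DTR/eGFP mice of 8 to 9 weeks and of both sexes, in which cells that express Foxp3, the regulatory T cells (Treg), carry the receptor for diphtheria toxin. The BCP group carried granules without cells. BCP+MSC carried 800000 mesenchymal stromal cells (MSC) from the bone marrow of C57BL/6J mice. BCP+MSC+RvE1 carried MSC primed with resolvin E1 (RvE1), a lipid mediator, at 10 nM, and BCP+MSC+Treg carried MSC cocultured with Treg of Foxp3 reporter mice in equal number, both for 36 h. The other 2 groups carried BCP+MSC and their hosts received diphtheria toxin at 50 µg/kg on 2 consecutive days after implantation and then on days 4, 6, 8 and 10. They are named (dep)BCP+MSC and, with daily injections of 50 µL of 1 µM RvE1 at the implant, (dep)BCP+MSC+RvE1inj. All hosts carried the receptor allele, and no group was given toxin without MSC. The toxin, the loss of Treg and anything else particular to those 2 groups cannot be told apart. The RNA came from the whole construct with host and seeded cells mixed, and the samples carry no label for the sex of the animal.

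Total counts per sample ran from 8482701 in (dep)BCP+MSC replicate 1 to 144417743, a 17.0-fold range. A count of 3 was worth 0.354 CPM at the lowest depth, where CPM is the count brought to a common library size with the TMM factors of edgeR, and covers counting error only. Foxp3 itself ran from 0.378 to 1.69 CPM in (dep)BCP+MSC and from 0.298 to 1.07 CPM in (dep)BCP+MSC+RvE1inj, against 0.629 to 1.19 CPM in BCP+MSC. The groups overlapped, so Foxp3 mRNA in the constructs gave no check of the depletion at this time. The paper reports that flow cytometry of lymph nodes and spleen showed fewer Treg after toxin, in other tissues and by another measure. The skeletal muscle markers, 10 genes such as Ckm and Acta1, had a mean log2 CPM of 3.80 in BCP+MSC replicate 2 and of 7.26 to 10.8 in the other 23 samples. The keratinocyte markers stood at 4.83 in (dep)BCP+MSC replicate 1 and at 0.760 or less in the others.

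The promoters of 4 genes are shown for the contrast between them, since Postn and Tnc are matrix genes called lower in (dep)BCP+MSC and Tgfb1 and Tgfb2 are ligands that did not pass the test there. Each sequence holds the 250 bases before a RefSeq transcript start on GRCm38.p6, read 5′ to 3′ on the strand of the gene, and RefSeq windows were matched for 6 of the 10 genes. For genes with more than 1 window the one nearest to the gene start of the count annotation was taken. Capitals mark TATAA, the core of a TATA box, and CAGAC, a core bound by SMAD proteins, each searched on both strands, so that TTATA and GTCTG are marked as well.
Postn, chr3:54360857-54361106, plus strand: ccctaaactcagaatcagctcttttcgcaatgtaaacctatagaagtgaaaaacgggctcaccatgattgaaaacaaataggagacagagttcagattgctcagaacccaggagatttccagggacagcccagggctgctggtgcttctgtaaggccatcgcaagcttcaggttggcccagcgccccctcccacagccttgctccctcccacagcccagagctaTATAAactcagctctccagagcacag
Tnc, chr4:64047016-64047265, minus strand: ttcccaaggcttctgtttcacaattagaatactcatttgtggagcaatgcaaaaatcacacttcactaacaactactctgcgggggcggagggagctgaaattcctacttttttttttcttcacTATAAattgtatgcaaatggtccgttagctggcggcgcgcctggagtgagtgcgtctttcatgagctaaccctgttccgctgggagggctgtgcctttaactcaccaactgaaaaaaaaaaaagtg
Tgfb1, chr7:25686752-25687001, plus strand: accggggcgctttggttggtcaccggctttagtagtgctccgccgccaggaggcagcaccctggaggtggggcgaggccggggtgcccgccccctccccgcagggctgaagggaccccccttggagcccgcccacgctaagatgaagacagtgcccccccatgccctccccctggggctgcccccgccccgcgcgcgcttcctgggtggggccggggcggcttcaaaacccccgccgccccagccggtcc
Tgfb2, chr1:186705990-186706239, minus strand: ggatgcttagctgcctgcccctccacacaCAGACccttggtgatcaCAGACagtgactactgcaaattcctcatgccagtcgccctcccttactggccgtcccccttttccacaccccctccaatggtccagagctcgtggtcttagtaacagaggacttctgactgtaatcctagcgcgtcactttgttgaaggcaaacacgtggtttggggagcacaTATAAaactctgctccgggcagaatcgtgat
Among all 32851 promoter windows of this length, 22.8% held TATAA and 42.2% held CAGAC on either strand. In the windows shown, Postn had 1 TATAA and 0 CAGAC, Tnc had 1 and 0, and Tgfb2 had 1 and 2. The counts of Postn and Tnc depend on the window taken. The other window of Postn, chr3:54359017-54359266, held 0 TATAA and 1 CAGAC. The other window of Tnc, chr4:64046937-64047186, overlaps the one shown and held 2 and 1. Tgfb1 had neither motif and the highest share of G and C, 75.2% against 52.0% in Postn, 44.8% in Tnc and 53.6% in Tgfb2. A match is a run of letters and was not tested against the expression values.

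Fn1, which encodes fibronectin, was the most abundant of the 10 genes. On the scale of CPM per kilobase of exon (RPKM), which allows genes of different length to be compared, Fn1 stood at 460 ± 139 (SD, n = 4) in BCP and Postn, encoding periostin, at 234 ± 33.3. Acta2, which encodes the smooth muscle actin that marks contractile myofibroblasts, followed at 95.9 ± 40.4, and Tnc, encoding tenascin C, at 55.5 ± 23.3. Cthrc1, Thbs2 and Tgfb1 lay close together at 41.0 ± 7.58, 37.8 ± 11.0 and 34.5 ± 5.00, and their ranges over the samples overlapped. Tgfb3 at 17.2 ± 1.65, Fap at 5.76 ± 0.698 and Tgfb2 at 2.54 ± 1.07 RPKM were lowest, each apart from its neighbour in that order. Among the ligands Tgfb1 was thus above Tgfb3, and Tgfb3 above Tgfb2, in BCP with no overlap. Tgfb1 stayed the highest and Tgfb2 the lowest of the ligands by mean RPKM in the other 5 groups. Among the (dep)BCP+MSC samples, Acta2 at 61.3 ± 28.7 and Postn at 59.9 ± 17.0 RPKM overlapped, where Postn had been higher than Acta2 without overlap in BCP and BCP+MSC. Fap was the lowest gene there at 1.41 ± 0.199, under Tgfb2 at 2.25 ± 0.696 RPKM.

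**Figure D1:**
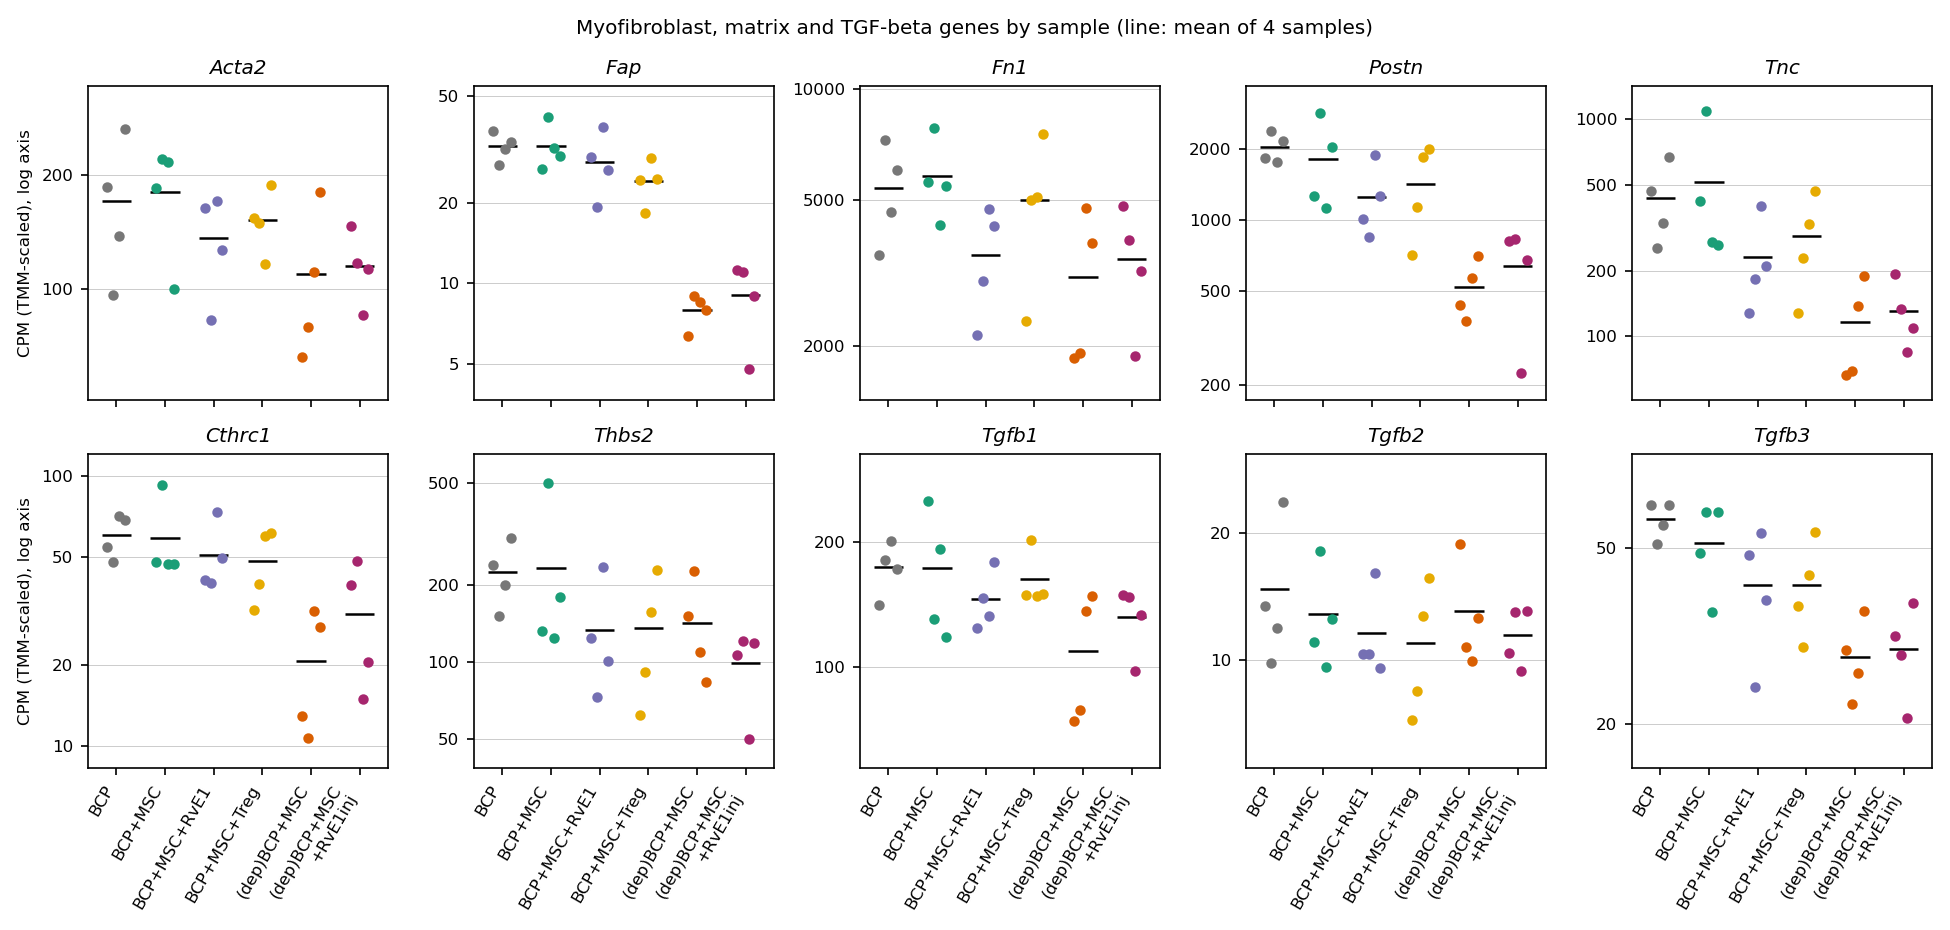
CPM of the 10 genes in each of the 24 samples, on a log axis of its own for each gene; points are samples coloured by group and lines are means of 4 samples. All 8 points of the toxin-treated groups lie below the other 16 for Fap, from 4.78 to 11.2 against 18.3 to 41.9 CPM, while the groups overlap for Tgfb2.

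The comparison of (dep)BCP+MSC with BCP+MSC asked what toxin treatment of the host changed around the same construct. Fap, Postn, Tnc, Cthrc1 and Tgfb3 were lower in toxin-treated hosts, 5 of the 10 genes by the quasi-likelihood test of edgeR at a Benjamini-Hochberg adjusted p under 0.05, against 2.17% of the 30564 genes tested that were called lower and 1.75% called higher. The other 5 genes did not pass. At an unadjusted p under 0.05 there were 8 of the 10, against 20.3% of all genes, and 9 of 10 had a negative log2 fold change, against 52.1%. The median log2 fold change was -0.88 over the 10 genes and -0.04 over all genes. The genes vary together across samples, so these counts do not rest on 10 separate observations. In 4 of them, Fap, Postn, Tnc and Cthrc1, all samples of one group lay below all of the other, against 4.93% of all genes. For bulk samples, fewer cells of a type and less RNA per cell cannot be told apart. DESeq2 called the same 5 genes, where it called 1405 of 30564 genes lower and 1490 higher.

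Fap (chr2:62500943-62574075, minus strand, GRCm38) encodes fibroblast activation protein, a serine protease on the surface of activated fibroblasts. It stood at 26.6, 41.9, 32.1 and 29.9 CPM in the 4 BCP+MSC samples and at 6.38, 8.94, 8.56 and 7.98 CPM in (dep)BCP+MSC. It was 11.2, 11.1, 4.78 and 9.00 CPM in (dep)BCP+MSC+RvE1inj. Every toxin-treated sample was below every untreated sample of the series, since BCP, BCP+MSC+RvE1 and BCP+MSC+Treg ran from 18.3 to 38.3 CPM. Of all genes tested, 192, or 0.628%, had all 8 toxin-treated samples below all 16 others, and Fap was the only one of the 10 genes that did. The log2 fold change to BCP+MSC was -2.03 ± 0.25 (SE) in (dep)BCP+MSC, 4.08-fold lower with an edgeR adjusted p of 9.7e-05. It was -1.85 ± 0.25 in (dep)BCP+MSC+RvE1inj, 3.59-fold lower with an adjusted p of 0.0014. Both comparisons share the BCP+MSC samples.

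Acta2 (chr19:34241090-34255336, minus strand), the other myofibroblast gene, stood at 184, 220, 216 and 99.96 CPM in BCP+MSC and at 66.0, 79.2, 111 and 181 CPM in (dep)BCP+MSC. With the injection, in (dep)BCP+MSC+RvE1inj, it was 146, 117, 84.9 and 113 CPM. The lowest BCP+MSC sample fell within the range of both toxin-treated groups. Its log2 fold change was -0.72 ± 0.32 in (dep)BCP+MSC and the edgeR adjusted p was 0.21. Pericytes and vascular smooth muscle express Acta2 too, so its level in a whole construct is not that of myofibroblasts alone.

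Postn (chr3:54361109-54391037, plus strand) encodes periostin, a matrix protein of wounds and capsules. It stood at 1263, 2844, 1128 and 2044 CPM in BCP+MSC against 438, 373, 569.6 and 707 CPM in (dep)BCP+MSC. The 2 groups did not overlap, and (dep)BCP+MSC+RvE1inj at 816, 832, 226 and 682 CPM was also below BCP+MSC in each sample. For (dep)BCP+MSC the log2 fold change was -1.80 ± 0.39 with an edgeR adjusted p of 0.0083. With the injection it was -1.51 ± 0.38 with an adjusted p of 0.065, which missed the threshold.

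Tnc (chr4:63959785-64047015, minus strand) encodes tenascin C, a matrix protein that appears during tissue repair. Its values were 421, 1096, 273 and 262 CPM in BCP+MSC and 65.9, 69.2, 138 and 189 CPM in (dep)BCP+MSC. The ranges did not overlap, though BCP+MSC replicate 2, the sample with few muscle transcripts, was far above the other 3. Tnc had a log2 fold change of -2.15 ± 0.51 with an edgeR adjusted p of 0.019. Without that sample it was -1.45 with an adjusted p of 0.087, and the call was also lost without (dep)BCP+MSC replicate 1 or 2, at 0.083 and 0.082. The (dep)BCP+MSC+RvE1inj samples at 194, 133, 84.1 and 109 CPM lay below all BCP+MSC samples as well, with a log2 fold change of -1.98 ± 0.50 and an edgeR adjusted p of 0.069.

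Cthrc1 (chr15:39076932-39087121, plus strand) encodes a secreted protein of activated fibroblasts that carries a collagen triple helix repeat. In BCP+MSC it stood at 48.3, 92.8, 47.5 and 47.3 CPM. Toxin-treated (dep)BCP+MSC held 13.0, 10.7, 31.7 and 27.6 CPM, all below BCP+MSC. Replicates 1 and 2 of (dep)BCP+MSC were the lower pair there, as they were for Acta2, Fn1, Postn, Tnc and Tgfb1, and the 2 samples without a replicate number the higher pair. Cthrc1 had a log2 fold change of -1.50 ± 0.37 with an edgeR adjusted p of 0.022. The call was lost without BCP+MSC replicate 2 and without (dep)BCP+MSC replicate 1 or 2, with log2 fold changes of -1.18, -1.34 and -1.29 and adjusted p-values of 0.087, 0.10 and 0.096. With the injection the values of 39.6, 48.6, 14.9 and 20.4 CPM overlapped with BCP+MSC. Here the log2 fold change was -0.93 ± 0.37 and the edgeR adjusted p was 0.26.

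Fn1 (chr1:71585520-71653200, minus strand) and Thbs2 (chr17:14665500-14694262, minus strand), which encodes the matricellular protein thrombospondin 2, did not pass the test in toxin-treated hosts. Fn1 stood at 5596, 7858, 4265 and 5448 CPM in BCP+MSC and at 1853, 1912, 4764 and 3819 CPM in (dep)BCP+MSC. The 2 groups overlapped by a single pair of samples, and the log2 fold change of -0.91 ± 0.38 had an edgeR adjusted p of 0.17. Thbs2 stood at 132, 499, 124 and 179 CPM in BCP+MSC and at 151, 226, 109 and 83.5 CPM in (dep)BCP+MSC, with a log2 fold change of -0.71 ± 0.47 and an edgeR adjusted p of 0.42. Thbs2 was the only gene of the matrix group with its highest (dep)BCP+MSC values in replicates 1 and 2. With the injection it was 107, 121, 49.8 and 118 CPM, below all 4 BCP+MSC samples, and its log2 fold change was -1.24 ± 0.48 with an edgeR adjusted p of 0.25.

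Of the 3 ligands, Tgfb3 alone passed the test in (dep)BCP+MSC. Tgfb3 (chr12:86056744-86079041, minus strand) stood at 48.9, 60.5, 35.8 and 60.4 CPM in BCP+MSC and at 29.3, 22.1, 26.1 and 35.9 CPM in (dep)BCP+MSC. The ranges touched, with the highest (dep)BCP+MSC sample just above the lowest BCP+MSC sample. Tgfb3 had a log2 fold change of -0.86 ± 0.24, and the edgeR adjusted p of 0.047 was close to the threshold. The call was lost without BCP+MSC replicate 1, 2 or 4, (dep)BCP+MSC replicate 1 or 2 or the column numbered 4, with adjusted p-values of 0.087 to 0.16. With the injection Tgfb3 was 31.6, 28.6, 20.6 and 37.5 CPM, with a log2 fold change of -0.80 ± 0.24 and an adjusted p of 0.13.

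Tgfb1 (chr7:25687002-25705077, plus strand), the ligand that leukocytes and platelets also supply, stood at 251, 131, 192 and 118 CPM in BCP+MSC and at 74.0, 78.7, 137 and 148 CPM in (dep)BCP+MSC. Those groups overlapped, and the log2 fold change of -0.66 ± 0.25 had an edgeR adjusted p of 0.14. Tgfb2 (chr1:186622792-186705989, minus strand) stood at 11.0, 18.2, 9.62 and 12.5 CPM in BCP+MSC and at 18.8, 10.7, 9.95 and 12.6 CPM in (dep)BCP+MSC. Its log2 fold change was 0.01 ± 0.30, the only one of the 10 that was not negative, and its sign turned with the left-out sample. Tgfb2 did not pass the test in any of the 9 comparisons.

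**Figure D2:**
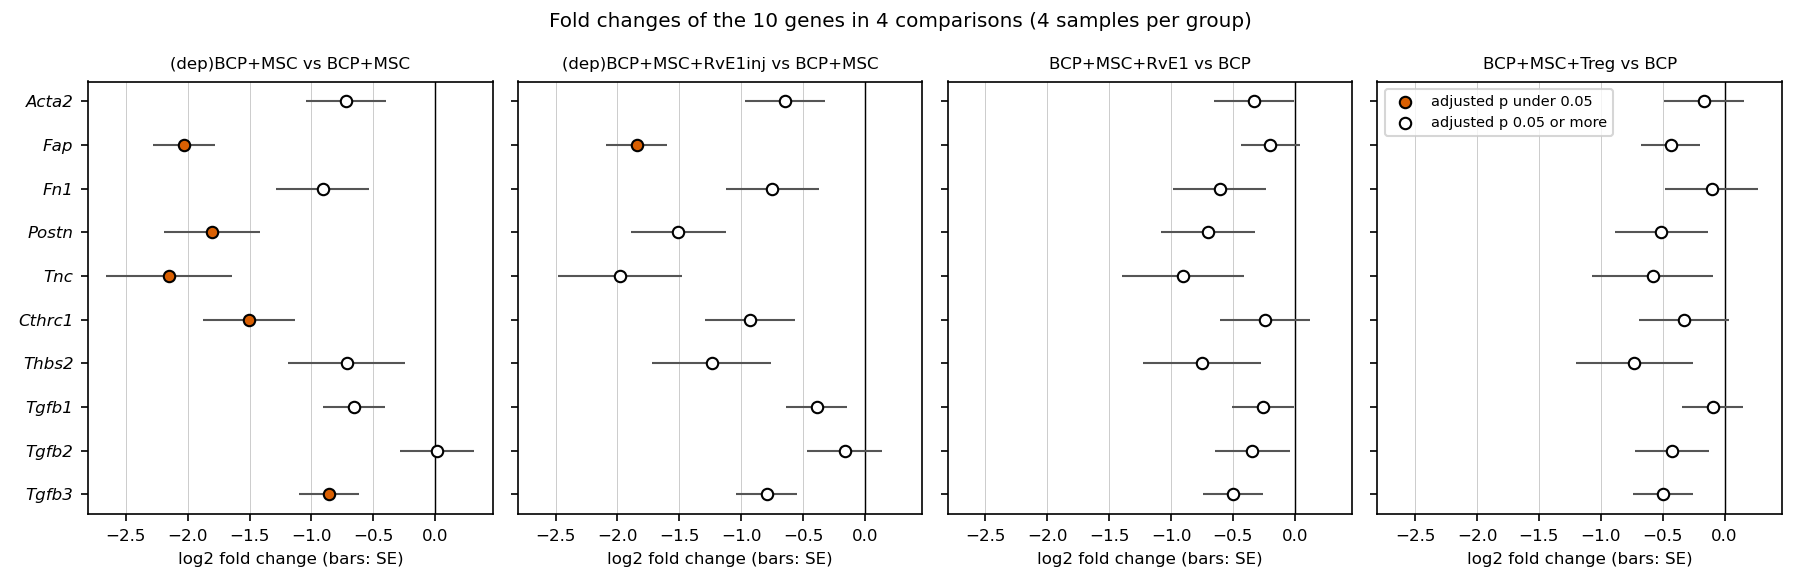
Log2 fold changes of the 10 genes from the edgeR model with their standard errors as bars, in 4 comparisons of 4 against 4 samples; orange points had an adjusted p under 0.05. On the left 5 genes were lower, and Fap alone was lower in (dep)BCP+MSC+RvE1inj, while all 10 points lie left of 0 for both primed groups against BCP and none of those passed.

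In (dep)BCP+MSC+RvE1inj against BCP+MSC all 10 log2 fold changes were negative, against 52.2% of all genes, with a median of -0.86 against -0.04. Fap was the 1 gene called, against 0.461% of all genes called lower and 0.258% called higher. At an unadjusted p under 0.05 there were 6 of the 10 genes, against 13.7% of all genes, and 4 of them, Fap, Postn, Tnc and Thbs2, did not overlap between the groups, against 4.44%. DESeq2 called 3 genes, Fap, Postn and Tnc, where it called 583 of 30564 genes lower and 529 higher. An exact two-sided permutation test, which cannot go below 0.0286 with 4 against 4 samples, gave that value for each gene without overlap. There were 90 such tests over the 10 genes and 9 comparisons, and their p-values were not adjusted.

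The injection of RvE1 was compared within toxin-treated hosts. The paper describes no injection of vehicle alone in (dep)BCP+MSC, so RvE1 and the daily injections themselves cannot be told apart. By edgeR 0 of the 10 genes differed between (dep)BCP+MSC+RvE1inj and (dep)BCP+MSC, against 0% of all genes, and 0 of the 10 had an unadjusted p under 0.05, against 7.42%. DESeq2 also called 0, where it called 5 of 30564 genes higher and 3 lower. Of the log2 fold changes 8 were positive and 2 negative, where 48.7% of all genes were negative, and the median was 0.16. The widest positive difference was in Cthrc1, 0.57 with a 95% interval of -0.14 to 1.29, and the widest negative one in Thbs2, -0.53 with an interval of -1.45 to 0.40. For Fap the difference was 0.18 with an interval of -0.29 to 0.66. The difference between this injection effect and that of RvE1 priming in untreated hosts was tested as an interaction, and 0 of the 10 genes were called by edgeR or by DESeq2, against 0% of all genes by edgeR. An unadjusted p under 0.05 was reached by 0 of the 10, against 4.45% of all genes. Tnc had the smallest unadjusted p of it, 0.068, with a log2 difference of 1.32 ± 0.69. Injection and priming differ in route, dose and host treatment at once, so the interaction does not isolate the host treatment.

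Priming of the MSC was compared with BCP and with BCP+MSC. By edgeR 0 of the 10 genes passed the adjusted threshold in any of the 6 comparisons among BCP, BCP+MSC, BCP+MSC+RvE1 and BCP+MSC+Treg, where 0% of all genes passed too, and DESeq2 also called 0 of the 10. At an unadjusted p under 0.05, 1 gene was found in these comparisons, Tnc in BCP+MSC+RvE1 against BCP+MSC, where 3.26% of all genes reached it. The other comparisons had 0 of the 10, where the share of all genes was 5.06% for BCP+MSC and 15.6% for BCP+MSC+RvE1 against BCP, 7.6% for BCP+MSC+Treg against BCP, 2.72% for BCP+MSC+Treg against BCP+MSC and 2.37% for BCP+MSC+Treg against BCP+MSC+RvE1.

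All 10 log2 fold changes were negative in BCP+MSC+RvE1 against BCP, from -0.90 to -0.20, where 47.2% of all genes were negative. The same held in BCP+MSC+Treg against BCP, from -0.73 to -0.10, where 46.9% of all genes were negative. The medians were -0.42 and -0.43, against 0.03 over all genes in both. These comparisons share the BCP samples, and the genes vary together across samples, so the 10 signs are not 10 separate observations. Against BCP+MSC all 10 were negative as well in both primed groups, where 52.5% of all genes were negative with RvE1 priming and 53.2% with Treg coculture. In BCP+MSC against BCP, 5 genes were positive and 5 negative, from -0.19 to 0.25, where 43.8% of all genes were negative.

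Tnc showed the largest difference of BCP+MSC+RvE1 from both reference groups without passing the test. It stood at 468, 255, 334 and 669 CPM in BCP, at 128, 184, 398 and 211 CPM in BCP+MSC+RvE1 and at 128, 230, 328 and 468 CPM in BCP+MSC+Treg. The log2 fold change of BCP+MSC+RvE1 was -0.90 ± 0.49 against BCP with an edgeR adjusted p of 0.36, and -1.15 ± 0.49 against BCP+MSC with an unadjusted p of 0.028 and an adjusted p of 0.92. Both primed groups overlapped with BCP.

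Tgfb3 was the ligand with the largest difference of both primed groups from BCP, and it did not pass either. It stood at 62.8, 51.1, 56.3 and 62.5 CPM in BCP, at 48.2, 24.2, 54.0 and 38.2 CPM in BCP+MSC+RvE1 and at 37.0, 29.8, 43.4 and 54.4 CPM in BCP+MSC+Treg. In each primed group 1 sample reached into the BCP range. The log2 fold changes were -0.50 ± 0.24 in both, with edgeR adjusted p-values of 0.32 and 0.61. Fap did not pass in BCP+MSC+Treg, with 37.1, 27.7, 31.8 and 33.7 CPM in BCP against 24.2, 18.3, 29.4 and 24.5 CPM in BCP+MSC+Treg, a log2 fold change of -0.44 ± 0.24 and an edgeR adjusted p of 0.61.

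Ordered by mean CPM over the 6 groups, BCP or BCP+MSC was highest for all 10 genes and (dep)BCP+MSC lowest for 8 of them. The exceptions were Thbs2, lowest in (dep)BCP+MSC+RvE1inj, and Tgfb2, lowest in BCP+MSC+Treg. The ratio of the highest to the lowest group mean was 4.44 for Tnc, 4.10 for Fap, 3.91 for Postn and 2.93 for Cthrc1. It was 2.36 for Thbs2, 2.05 for Tgfb3, 1.88 for Fn1, 1.65 for Acta2, 1.59 for Tgfb1 and 1.34 for Tgfb2.

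Other genes of the pathway were read from lists of receptors and SMADs, of latent TGF-beta handling, of target genes and of contractile genes. Among 15 receptor and SMAD genes, 2 were lower in (dep)BCP+MSC than in BCP+MSC and 0 higher, where 2.17% of all genes were lower and 1.75% higher. Smad3, a transducer of the ligand signal, was 24.2 ± 2.92 against 42.6 ± 12.0 CPM, a log2 fold change of -0.82 ± 0.21 with an edgeR adjusted p of 0.025. Acvrl1, a type I receptor of endothelial cells, was 59.2 ± 19.6 against 115 ± 23.7 CPM, a log2 fold change of -0.95 ± 0.23 with an adjusted p of 0.019. The receptors Tgfbr1 and Tgfbr2 had log2 fold changes of -0.15 and 0.01 and did not pass, nor did Smad2 at -0.02. Tgfbr3 at 0.85 and Smad4 at 0.47 were positive, with edgeR adjusted p-values of 0.059 and 0.11. Of the 15 genes 8 had a negative log2 fold change, where 52.1% of all genes did. The median of the list was -0.02, against -0.04 over all genes.

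Among 15 genes of latent TGF-beta handling, 4 were lower and 0 higher, beside the 2.17% and 1.75% of all genes. Lrrc32, which encodes a docking receptor for latent TGF-beta on Treg, platelets and endothelium, was 32.6 ± 11.0 against 106 ± 9.67 CPM, and its range of 21.3 to 44.5 CPM was clear of 96.5 to 116 CPM in BCP+MSC. Its log2 fold change was -1.70 ± 0.27 with an edgeR adjusted p of 0.0010, and in (dep)BCP+MSC+RvE1inj it was -1.75 ± 0.27 with an adjusted p of 0.0036. Itgb5, an integrin chain that can release the ligand, was 166 ± 28.4 against 321 ± 40.01 CPM. Emilin1, an inhibitor of ligand maturation, was 109 ± 48.1 against 228 ± 53.5 CPM, and Nrros, a docking protein of macrophages, had a log2 fold change of -0.93. The median of the list was -0.60.

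Of 20 target genes, 2 were lower and 0 higher, beside 2.17% and 1.75% of all genes. Col1a2, a chain of type I collagen, was 2223 ± 972 against 6937 ± 2073 CPM, a log2 fold change of -1.64 ± 0.44 with an edgeR adjusted p of 0.034. Adam12, a metalloprotease of activated fibroblasts, was 22.2 ± 8.95 against 87.4 ± 65.6 CPM, with a log2 fold change of -1.97 ± 0.53 and an adjusted p of 0.039. Col1a1 at -1.54 and Col3a1 at -1.69 had adjusted p-values of 0.0503 and 0.078, and missed the threshold. Sphk1 missed it in the other direction, at 0.75 with an edgeR adjusted p of 0.062. Of the 20 genes 13 had a negative log2 fold change, where 52.1% of all genes did. The immediate target Ccn2 had a positive log2 fold change of 1.13 with an edgeR adjusted p of 0.29, and did not pass either. The median of the list was -0.34.

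Of 17 contractile genes, 4 were lower and 0 higher, beside 2.17% and 1.75% of all genes. They were Cald1 with a log2 fold change of -1.05, Cnn2 with -1.12, Smtn with -0.74 and Mrtfa with -0.58, which encode actin-binding proteins and, for the last, a cofactor of serum response factor. Tagln, a common marker beside Acta2, was at -0.48 with an edgeR adjusted p of 0.65. Of the 17 genes 11 had a negative log2 fold change, where 52.1% of all genes did, and the median of the list was -0.48. Des at 2.08, Tpm2 at 0.75, Lmod1 at 0.68, Cnn1 at 0.67, Myocd at 0.48 and Myh11 at 0.44 were positive and did not pass. For (dep)BCP+MSC+RvE1inj against BCP+MSC, Smad3 at -0.97, Lrrc32 at -1.75 and Cald1 at -1.29 were called lower, where 0.461% of all genes were, and 0 genes of the 4 lists were called higher, where 0.258% of all genes were. In the 6 comparisons among groups without toxin, 0 genes of the 4 lists were called by edgeR.

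**Figure D3:**
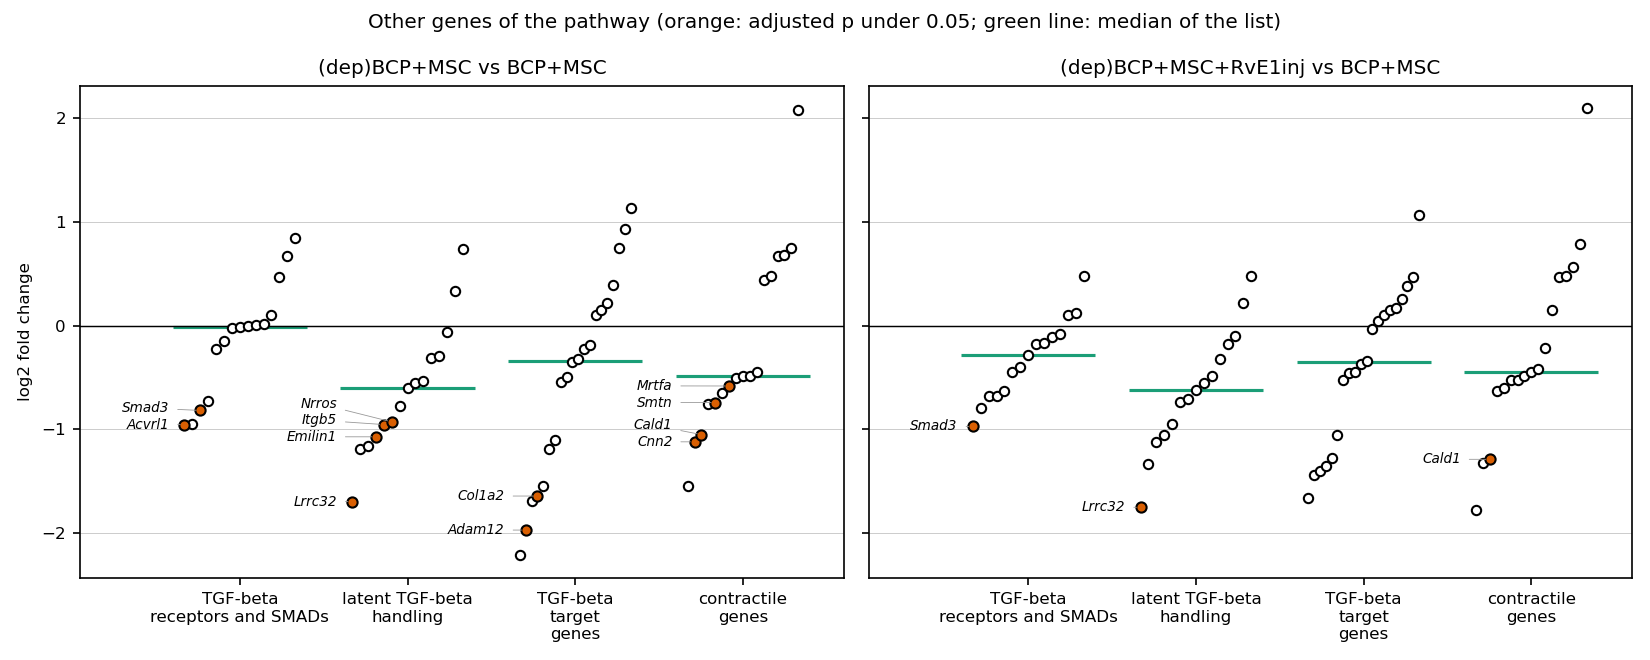
Log2 fold changes of the genes in 4 pathway lists in both toxin-treated groups against BCP+MSC; each point is a gene, orange points had an adjusted p under 0.05 and green lines are list medians. The orange points lie below 0 in both panels, and the receptor and SMAD genes scatter around 0 on the left with a median of -0.02.

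Markers of the cell types that a construct can hold were read in the same comparison. Of 10 fibroblast markers, 6 were lower in (dep)BCP+MSC than in BCP+MSC and 0 higher, where 2.17% and 1.75% of all genes were, with a median log2 fold change of -1.55. The largest was Col15a1, 38.0 ± 25.0 against 323 ± 78.2 CPM, with a log2 fold change of -3.09 and an edgeR adjusted p of 0.00015. Dpt, Thy1, Lum, Fbln1 and Pi16 were the others. The broad fibroblast markers Dcn, 932 ± 81.9 against 892 ± 366 CPM with a log2 fold change of 0.06, and Pdgfra, with a log2 fold change of -0.12, did not pass. The summed level of the 10 markers was 4322 to 10289 CPM in (dep)BCP+MSC, 3215 to 11933 CPM in (dep)BCP+MSC+RvE1inj and 12073 to 28933 CPM in BCP+MSC, and none of them was at 0. Most of that sum was Col1a1 and Col3a1, at means of 7148 and 10123 CPM in BCP+MSC, and neither was called.

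Of the 10 smooth muscle and pericyte markers, 4 were lower in (dep)BCP+MSC and 0 higher, beside 2.17% and 1.75% of all genes. The 4 were Rgs5, Cspg4, Smtn and Pdgfrb. In all, 6 of the 10 had a negative log2 fold change. Des at 2.08, Lmod1 at 0.68, Cnn1 at 0.67 and Myh11 at 0.44 were positive and did not pass. The summed level was 1843 to 3442 CPM against 656 to 1260 CPM in BCP+MSC. That sum holds Des, which skeletal muscle expresses at a high level. Macrophage, endothelial, adipocyte and skeletal muscle markers had 0 of 10 called each in this comparison by edgeR, with 1, 1, 0 and 2 at an unadjusted p under 0.05, where 20.3% of all genes reached it. The summed macrophage level was 4584 to 8323 CPM against 7306 to 10107 CPM. Of the 10 keratinocyte markers 3 were higher in (dep)BCP+MSC, Lor, Krt1 and Krt10, and 0 lower, beside 1.75% and 2.17% of all genes. Their summed level was 507 CPM in (dep)BCP+MSC replicate 1, where the other samples of the 2 groups held 16.7 to 111 CPM. Apart from skeletal muscle, the part of these cell types in the results on the 10 genes was not tested.

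With the skeletal muscle score as a covariate Fap, Postn and Tnc kept an adjusted p under 0.05 in (dep)BCP+MSC and Cthrc1 and Tgfb3 did not. Their log2 fold changes with the covariate were -1.26 and -0.76, against -1.50 and -0.86 without it, and the adjusted p-values were 0.052 and 0.074. Without both BCP+MSC replicate 2 and (dep)BCP+MSC replicate 1, Fap alone was called, where 174 of 30191 genes were called lower. A fit of only the 8 samples of these groups also called Fap alone, and the other 4 genes had adjusted p-values of 0.056 to 0.13 there. That fit called 76 of 26389 genes lower.

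**Figure D4:**
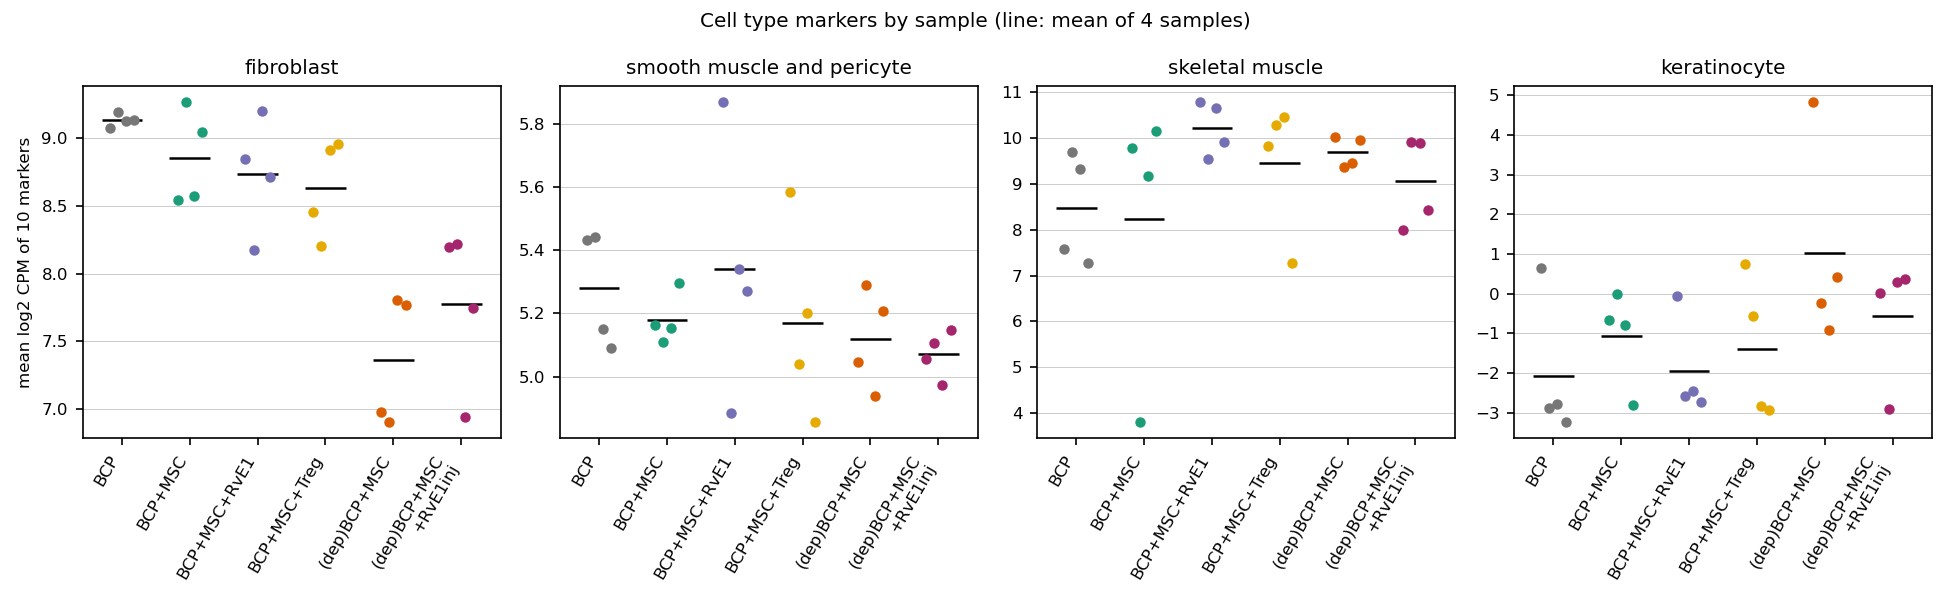
Mean log2 CPM of 10 markers of fibroblasts, smooth muscle and pericytes, skeletal muscle and keratinocytes in each sample, with points coloured by group and lines for means of 4 samples. Fibroblast scores are lowest in the toxin-treated groups, at 6.90 to 8.22 against 8.18 to 9.26 in the others, and BCP+MSC replicate 2 stands apart at 3.80 for skeletal muscle.

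Across the 24 samples the 10 genes varied together to differing degrees. Pearson's r of log2 CPM over the 45 pairs had a median of 0.62 and ran from -0.23 to 0.90. After each sample's group mean was taken off the median was 0.50. The closest pairs were Postn with Cthrc1 at 0.90 and Postn with Fap at 0.89, and within groups Fn1 with Postn at 0.82 and Tnc with Cthrc1 at 0.81. Tgfb2 followed Thbs2 at 0.74 and, within groups, at 0.76, and had only 0.16 with Fap. Tgfb1 stood apart from both, at -0.23 with Tgfb2 and -0.05 with Thbs2. These values are descriptions over samples that share the groups, the tissue mix and the scaling.

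**Figure D5:**
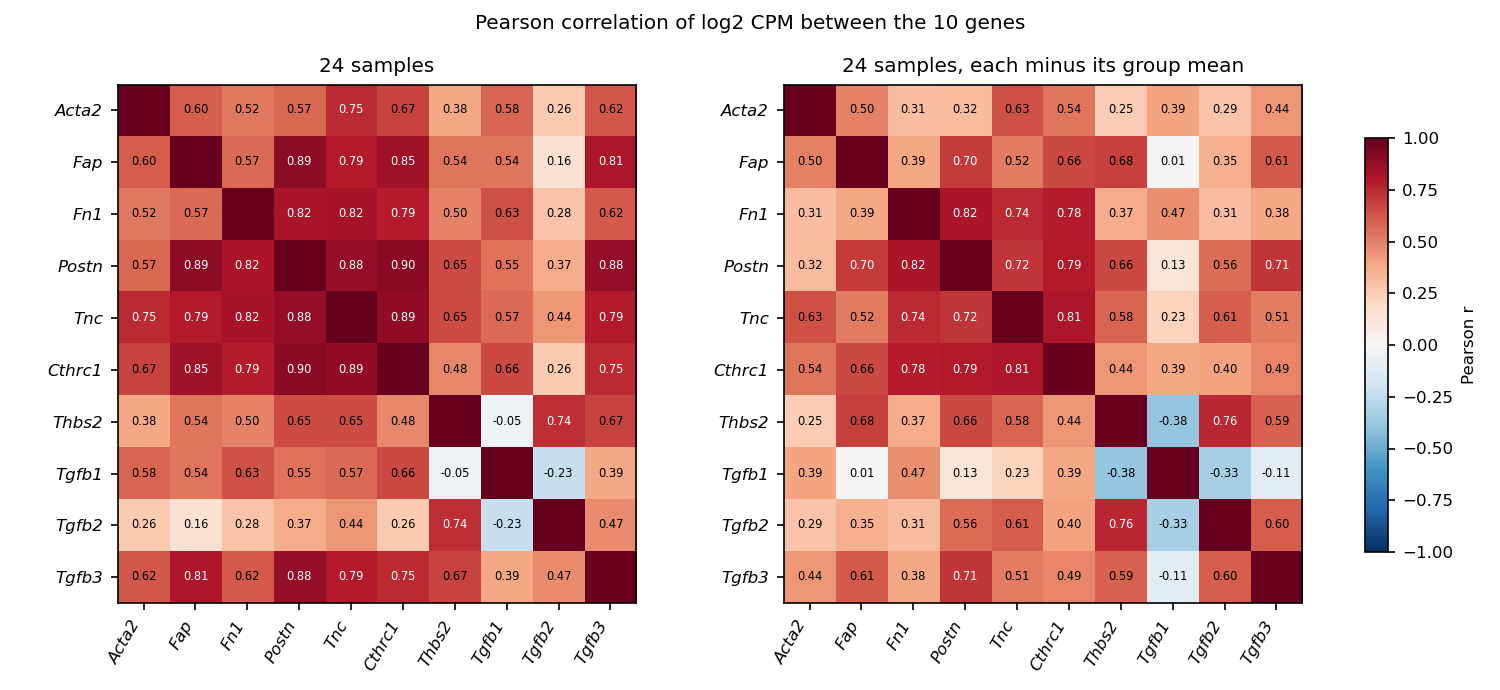
Pearson's r of log2 CPM between each pair of the 10 genes over 24 samples, as measured on the left and after removing the group means on the right. The matrix genes Fn1, Postn, Tnc and Cthrc1 form a block of high values in both, and the row of Tgfb1 holds the negative ones.

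BCP+MSC replicate 2 was the highest of its group in 9 of the 10 genes, and BCP+MSC+RvE1 replicate 3 likewise in 9 of 10. BCP+MSC+Treg replicate 4 was highest in 8 of 10, and (dep)BCP+MSC+RvE1inj replicate 3 was the lowest of its group in all 10. Tgfb1 was the gene in which BCP+MSC replicate 2 was not the highest, at 131 CPM against 251 CPM in replicate 1.

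Among 12980 genes with a mean log2 CPM of at least 1, Col6a3 followed the mean z score of the 10 genes most closely over the 24 samples, with Pearson's r of 0.97. Palld at 0.96, Adam12 at 0.96, Col5a1 at 0.96 and Glis2 at 0.95 came next, and Sfrp1, Lrrc15, Gdf11, Ptgfrn and Phldb2 followed at 0.95. Col6a3 and Col5a1 encode collagen chains and Palld an actin-associated protein. For single genes, C1qtnf3 was nearest to Postn at 0.97, Iglon5 to Fap at 0.96, Lrrc15 to Tnc at 0.95 and Loxl3 to Fn1 at 0.95. Actg2, the enteric smooth muscle actin, was nearest to Acta2 at 0.89, and Fes, a kinase of myeloid cells, nearest to Tgfb1 at 0.91. These are descriptions of likeness across samples.

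Of the 10 genes, 4 share some exon bases with a gene on the other strand in the annotation, and the counting stated no strand. Fn1 shared 292 of 11685 bases with Apol7d, Tnc 176 of 7772 with 8030451A03Rik, Tgfb2 124 of 5791 with Gm29491 and Tgfb3 163 of 3384 with Gm37804. Those partners held 52 to 595 counts over all samples.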

How the data were processed

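Bulk RNA sequencing of subcutaneous constructs explanted at week 2 was analysed for 24 samples in 6 groups of 4, taken from the titles of the samples. RNA was isolated with the RNeasy kit, and TruSeq stranded mRNA libraries were sequenced as paired ends. The authors aligned reads with HISAT2 2.0.5 and counted them on exons with featureCounts 1.5.2, using GENCODE M13 on GRCm38. They deposited counts for 51138 genes, not normalized, and stated no setting for strand, for reads with several alignments or for genes that overlap. The submitters' processing notes also name STAR, Picard and DESeq2 1.42.0. All 24 columns were used. In (dep)BCP+MSC the columns are numbered 1, 2, 4 and 5 and the sample titles 1 to 4, which leaves columns 4 and 5 as samples of that group with no replicate number. Symbols were matched for 50376 identifiers through a GENCODE annotation of the same genome build.

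The test was the quasi-likelihood F-test of edgeR 4.0.16 (R 4.3.3). A gene entered with 10 or more counts summed over the samples, which 30564 of the 39183 genes with any count had. The 24 samples were fitted together, with TMM factors, robust dispersions and no covariate, and Benjamini-Hochberg adjustment ran over all genes tested. Log2 CPM had a prior count of 2. Fold changes are estimates of the model, and intervals span 1.96 standard errors. The floor of 3 counts covers counting error only. Exact two-sided permutation tests used the 70 arrangements of 4 against 4. The fits were tested on simulated counts. Alternatives were RLE size factors, filterByExpr, no filter, muscle and Xist covariates, a replicate block, fits of only the groups compared, DESeq2 1.42.0, a second threshold of 1 on the absolute log2 fold change, and each sample left out in turn. Tables and figures used Python 3.11.15, pandas 2.3.3 and matplotlib 3.10.9.

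The 10 genes and the lists of pathway and marker genes were chosen with earlier results of these data known, so none of their directions is independent support. The rule for names was all 10 genes, genes of the lists where called (at most 4 per list and comparison) or as examples, and the genes most like the 10 by correlation.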

Additional observations from a re-analysis of the deposited data

Results flagged for a closer look

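A sample was marked where its gap to the nearest other sample of its group, divided by the range of the group, was above Dixon's 95% critical value for 4 samples on the log2 CPM scale. Of 60 sets of 4 samples, 5 were marked, and chance marks about 1 in 20. The lowest values of Postn and Thbs2 in (dep)BCP+MSC+RvE1inj were both in replicate 3, at 7.82 and 5.64 log2 CPM, which was the lowest sample of its group for all 10 genes. Cthrc1 was highest in BCP+MSC replicate 2 at 6.54, Tgfb1 in BCP+MSC+Treg replicate 2 at 7.67 and Tgfb2 in BCP+MSC+RvE1 replicate 3 at 4.01 log2 CPM. The cause was not tested. The difference between RvE1 injection in toxin-treated hosts and RvE1 priming in untreated hosts did not pass for any of the 10 genes. Route, dose and host treatment differ together there and cannot be told apart.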

How the results depend on the processing

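The count of the 10 genes called in (dep)BCP+MSC against BCP+MSC was 5 and moved to 3 with the muscle covariate and to 1 in the fit of only the 2 groups. It ran from 2 to 5 with each sample left out in turn and was 2 without BCP+MSC replicate 2, (dep)BCP+MSC replicate 1 or (dep)BCP+MSC replicate 2, where Fap and Postn remained. With both BCP+MSC replicate 2 and (dep)BCP+MSC replicate 1 left out, an alternative added after the data were seen, it was 1. The calls over all genes moved as well. Genes called lower numbered 664 of 30564 in the main fit and 744 of 30564 with the muscle covariate. They numbered 76 of 26389 in the fit of only the 2 groups and 174 of 30191 with both samples left out. In (dep)BCP+MSC+RvE1inj against BCP+MSC the count of 1 became 2 with the Xist covariate, which added Postn, and 3 with DESeq2. Over all 30564 genes, 141 were called lower in the main fit, 151 with the Xist covariate and 583 with DESeq2. Of 174 counts under alternatives, 6 were weaker and 2 stronger, all in these 2 comparisons, and 166 stayed within 1.5 times the main one. Most of the 166 belong to comparisons in which the main fit called 0 of the 10 genes, so they say little on stability. Fap kept its direction and its adjusted p under 0.05 in all alternatives of both comparisons. Tgfb3 in (dep)BCP+MSC was lost in 13 alternatives, with adjusted p-values up to 0.23, while its log2 fold change was -0.76 or lower in each of them. The cause was not tested.

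Fold changes of single genes were followed through the alternatives only for the toxin-treated groups against BCP+MSC and the primed groups against BCP. Signs turned in 8 cases there, all of genes that did not pass. The log2 fold change of Tgfb2 in (dep)BCP+MSC against BCP+MSC became -0.0078 with the Xist covariate and ran from -0.22 to 0.25 with single samples left out, negative without BCP+MSC replicate 1 or 3 or (dep)BCP+MSC replicate 1. In (dep)BCP+MSC+RvE1inj it ran from -0.28 to 0.080, positive without BCP+MSC replicate 2. In BCP+MSC+Treg against BCP, Acta2 ran from -0.36 to 0.12, positive without BCP replicate 4, and Fn1 from -0.36 to 0.13, positive without BCP replicate 2 or BCP+MSC+Treg replicate 1.

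The replicate numbers count animals within a group. Same-numbered samples of different groups correlated at -0.66 to 0.62 over 50 pairs, with a median of 0.0010. Differently numbered ones correlated at -0.67 to 0.77 over 150 pairs, with a median of -0.031. Same-numbered samples were not taken as paired. With the replicate block, on the 22 numbered samples, 6 of the 10 genes were called in (dep)BCP+MSC against BCP+MSC, and 7 on the same samples without the block. Of the 30092 genes tested there, 1445 were called lower with the block and 1837 without it. The main fit called 664 of 30564 lower. Fn1, Tgfb1 and Acta2 were called and Tgfb3 was not on those samples without the block. The block then removed Acta2, with Fn1 at -1.53 and Tgfb1 at -1.20. The 2 samples of (dep)BCP+MSC left there were the lower pair for Acta2, Fn1, Postn, Tnc, Cthrc1 and Tgfb1, and the higher pair for Thbs2. In the main fit, with 4 samples per group, log2 fold changes of -0.91 ± 0.38 in Fn1 and -0.66 ± 0.25 in Tgfb1 did not pass. The lowest counts in (dep)BCP+MSC were 64 for Fap, 742 for Tgfb1 and 18591 for Fn1.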
